A study of Mus musculus with 12 samples.

Results

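Complex I subunits encoded in the nucleus were followed in tibialis anterior, a shin muscle, of C57BL/6 male mice aged 13 weeks. They were taken by gene symbol, as every Nduf gene of the a, b, c, s and v series followed by a number, without pseudogenes, that had at least 10 counts summed over the libraries. The rule found 37 of the 22607 genes in the table, and all 37 passed the filter on low counts and were among the 16007 genes tested. One vector expressed Crtc2, a coactivator of Creb1, and the control vector expressed GFP. Mice ate ad libitum (fed) or underwent alternate day fasting (ADF) for 3 rounds. The 12 RNA libraries comprise 4 groups of 3, namely GFP and Crtc2 muscle of fed mice and GFP and Crtc2 muscle of ADF mice. Every group carried a vector, so no muscle without one was compared. No label states that replicate libraries came from separate animals, and the p-values therefore reflect only how these libraries vary, which can be technical variation. The acyl carrier subunit Ndufab1 has a symbol outside the rule and is given with the other genes of the pathway, and the subunits encoded by mitochondrial DNA and Ndufb1 were not analysed here.

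Complex I, the NADH:ubiquinone oxidoreductase, is the largest complex of the respiratory chain and passes electrons from NADH to ubiquinone while pumping protons across the inner mitochondrial membrane. The N module holds the flavin and oxidises NADH, the Q module reduces ubiquinone, and the membrane arm, divided into a proximal and a distal part, pumps protons. The core subunits carry the flavin and the iron-sulfur clusters, and the accessory subunits surround them and serve assembly and stability. Muscle is rich in this complex, and its nuclear genes are known targets of coactivators such as PGC-1 alpha acting with the factors NRF1, GABP and the estrogen-related receptors. Crtc2 acts through CREB at cAMP response elements (CRE), and promoters of the subunits were therefore searched for the CRE and for 5 other short motifs.

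Of the 37 members, 32 had a promoter window in RefSeq (build GRCm38.p6), from 250 bases before to 50 bases after the gene start, in 34 windows. The full CRE, TGACGTCA, was found in 3 of these 32 genes (9.38%), against 2.03% of 27025 genes with such a window. The sequences below, all upstream of the RefSeq start and read 5′ to 3′ on the gene's strand, show these 3 sites in capitals, and the ERR motif of Ndufb4, the subunit with the lowest fold change under ADF in GFP muscle. The window of Ndufb2 is chr6:39592315-39592564 (plus strand), and that of Ndufa11 is chr17:56717512-56717761 (plus strand). For Ndufa10 (chr1:92473807-92473836, minus strand) and Ndufb4 (chr16:37654406-37654435, minus strand) only the 30 bases around the motif are given, because GENCODE places the transcript start of both further upstream.
Ndufb2: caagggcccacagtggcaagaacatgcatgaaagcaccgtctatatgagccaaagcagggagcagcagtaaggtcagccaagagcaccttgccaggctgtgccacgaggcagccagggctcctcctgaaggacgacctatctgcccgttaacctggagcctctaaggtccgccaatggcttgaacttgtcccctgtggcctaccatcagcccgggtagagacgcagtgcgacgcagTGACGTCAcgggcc
Ndufa11: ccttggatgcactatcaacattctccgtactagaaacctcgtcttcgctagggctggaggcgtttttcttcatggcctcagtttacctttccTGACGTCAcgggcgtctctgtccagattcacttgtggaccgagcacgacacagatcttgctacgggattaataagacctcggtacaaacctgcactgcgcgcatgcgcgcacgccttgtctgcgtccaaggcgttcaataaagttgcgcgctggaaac
Ndufa10: acactcagtggTGACGTCAtggcagcgcgc
Ndufb4: ttcctgagcctgAAGGTCAgactcgagagg
The CRE began 14 bases before the start in Ndufb2, 67 in Ndufa10 and 158 in Ndufa11, and the ERR motif 55 bases before it in Ndufb4. On both strands, the short CRE motif TGACG, which every full CRE contains, was in 43.8% of member genes against 23% of all genes. The YY1 core AAGATGGC was in 21.9% against 3.19%, the NRF1 core GCATGCGC in 9.38% against 3.05%, the ERR motif AAGGTCA in 9.38% against 5.38%, and the ETS core CCGGAAGT in 3.12% against 4.31%. Of the other respiratory chain genes, 26 of complexes III, IV and ATP synthase had a window. Their shares were 3.85% for the full CRE, 30.8% for TGACG and 7.69% for the YY1 core. They were 19.2% for the NRF1 core, 15.4% for the ERR motif and 11.5% for the ETS core. The shares over all genes were not matched for base composition. All these are matches of letters in a window and were not tested as binding sites.

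Total counts per library ranged from 24232450 to 34610417, and 36 of the members had at least 717 counts in every library. Ndufa4l2 was the exception, with as few as 24 counts. Levels are CPM, counts scaled by library size with TMM factors. Crtc2 itself ranged from 17.3 to 29.2 CPM in fed GFP, 58.2 to 77.9 in fed Crtc2, 16.1 to 23.6 in ADF GFP and 31.4 to 42.8 in ADF Crtc2 muscle. It was thus higher in every Crtc2 library than in any GFP library of the same diet, although the test across all genes did not call it (2.85-fold, adjusted p = 0.134, and 1.93-fold, adjusted p = 0.127). With the Crtc2 vector, every ADF library lay below every fed library, also not called (1.75-fold lower, adjusted p = 0.0623 in the same test). ADF against fed in Crtc2 muscle and the interaction thus compare unequal Crtc2 levels, and the part of this was not tested. The members took 1.47 to 1.78% of all counts in the 6 fed libraries, 0.962 to 1.177% in ADF GFP and 1.25 to 1.44% in ADF Crtc2 muscle. Per kilobase of transcript, the highest mean level was that of Ndufb9 (1218 CPM per kilobase) and the lowest that of Ndufa4l2 (5.60). This order depends on the transcript chosen: with the shortest principal transcript Ndufa4 (1594) lay above Ndufb9, and the level of Ndufb2, whose principal transcripts measure 455 and 4371 bases, was 205 in place of 21.3 CPM per kilobase.

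In GFP muscle, ADF was accompanied by lower levels of most accessory subunits. With ADF against feeding, 20 of 37 members fell and 0 rose at an adjusted p under 0.05, where 3.06% of all genes tested fell and 4.06% rose (7.12% in either direction). The median log2 fold change of the members was -0.65, against -0.01 for all genes tested, and 34 of 37 were negative. In 27 members every ADF GFP library lay below every fed GFP library, which held for 11.3% of all genes. In bulk muscle, fewer cells of a type and less RNA per cell cannot be told apart. The count of 20 depended on single libraries and on transcript length: it was 7 without ADF GFP replicate 3, 10 without ADF GFP replicate 2, and 2 to 7 in 4 versions of a fit that removes the trend with length in each library. Ndufb2 and Ndufb4 were called in all 24 alternative settings.

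Ndufb4, an accessory subunit of the distal membrane arm (GRCm38 chromosome 16, 37647170 to 37654453), had 98.0, 98.3 and 103 CPM in fed GFP muscle and 30.7, 46.5 and 52.0 CPM in ADF GFP muscle. The groups did not overlap, and the highest ADF value was well below the lowest fed value. Its log2 fold change was -1.21 ± 0.21 (standard error, likewise below), 2.32-fold lower, with an adjusted p of 0.000949. Ndufb2, of the same arm (chromosome 6, 39592574 to 39603382), had 125, 91.8 and 103 CPM fed and 51.8, 53.2 and 33.8 CPM under ADF. Its lowest fed library lay above all 3 ADF libraries, and it fell by 1.20 ± 0.22 (adjusted p = 0.00138). Ndufc1, a small subunit of the proximal membrane arm (chromosome 3, 51404677 to 51408988), had 294, 378 and 360 CPM fed and 176, 184 and 165 CPM under ADF. The ADF libraries were close together and apart from the fed ones, and Ndufc1 fell by 0.97 ± 0.16 (adjusted p = 0.000644), the smallest adjusted p of the members. Its call was lost in 1 setting, the length fit with the shortest principal transcript.

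**Figure D1:**
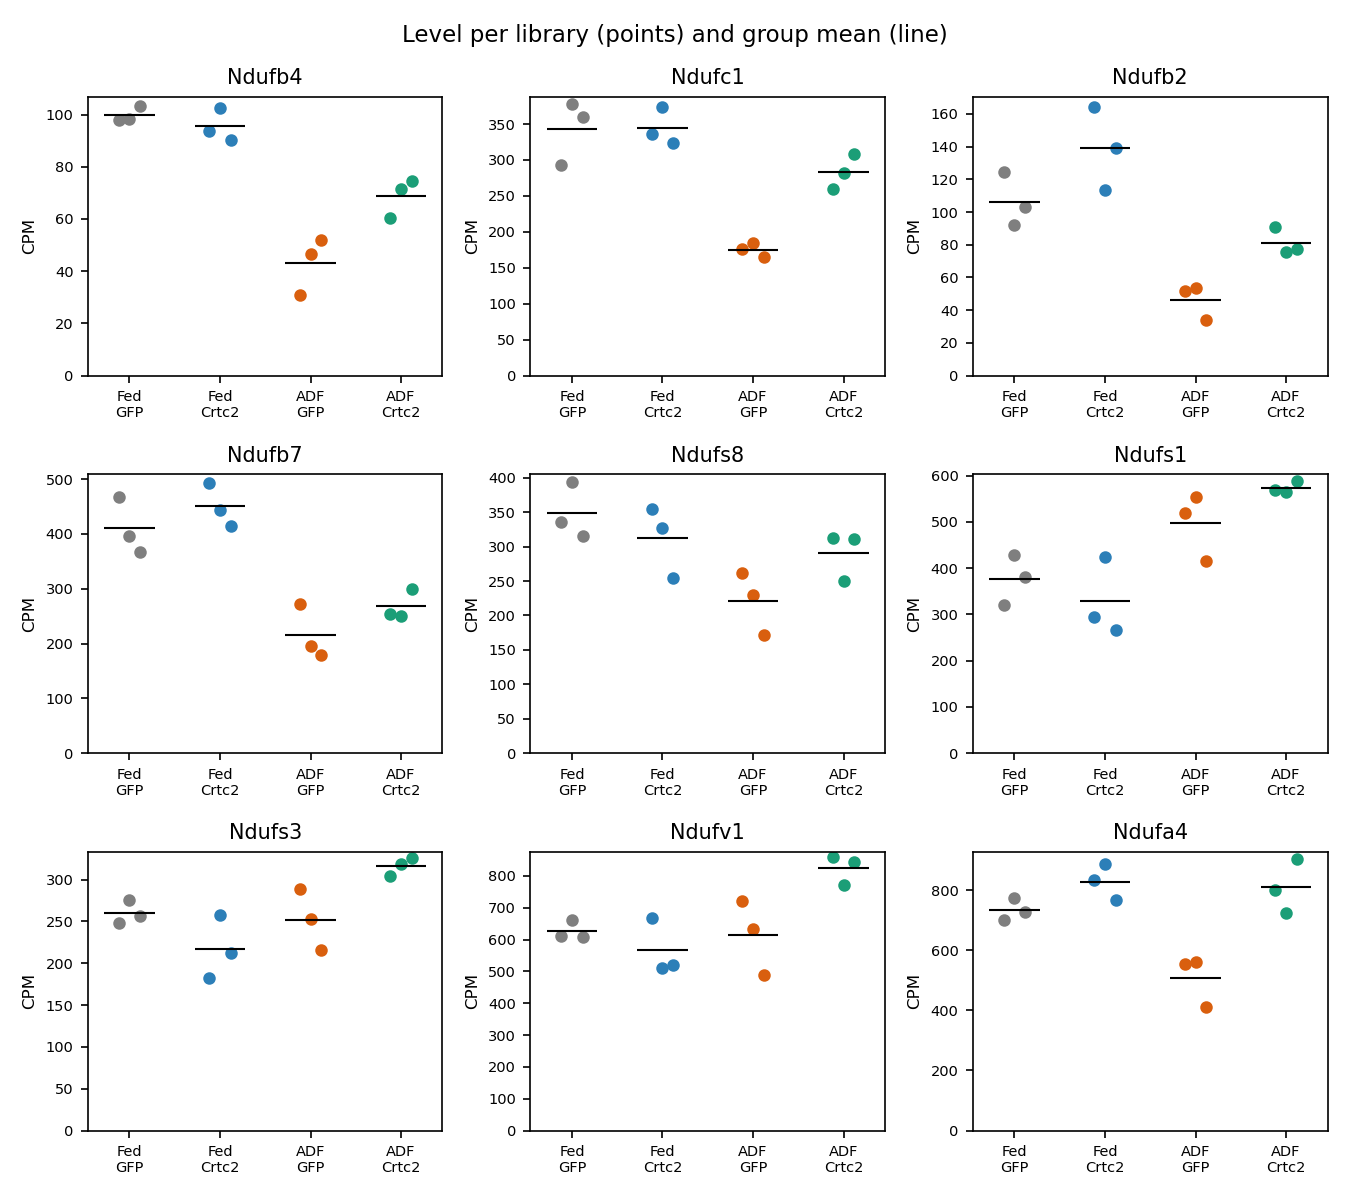
Levels of 9 subunits in CPM (vertical axis, from 0) in the 12 libraries by group; points are libraries and lines are means of 3 libraries. Ndufb4, Ndufc1, Ndufb2 and Ndufb7 were lower in every ADF GFP library than in every fed GFP library, while Ndufs1, Ndufs3 and Ndufv1 had their highest means in ADF Crtc2 muscle.

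By module, 6 of 10 members of the N module, 2 of 6 of the Q module, 6 of 9 of the proximal membrane arm and 6 of 10 of the distal membrane arm fell in GFP muscle. In the N module these were Ndufa2 (-0.98 ± 0.19), Ndufa6 (-0.92 ± 0.17), Ndufa7, Ndufa12, Ndufs6 and Ndufv3, all accessory. Ndufa6 had 440, 456 and 454 CPM fed and 283, 234 and 197 CPM under ADF, with no overlap. In the Q module Ndufa5 (-0.88 ± 0.21), which sits on the matrix arm, and the core subunit Ndufs8 fell. In the proximal arm Ndufa1, Ndufa3, Ndufa11, Ndufa13 and Ndufs5 fell beside Ndufc1, with log2 fold changes from -0.83 to -0.72. Ndufa13 is also known as GRIM-19, a protein linked to interferon and cell death. In the distal arm Ndufb3, Ndufb7, Ndufb10 and Ndufb11 fell beside Ndufb2 and Ndufb4, with Ndufb7 at -0.93 ± 0.18. Of the 20, only Ndufa2, Ndufa6, Ndufa7, Ndufb2, Ndufb4, Ndufb7 and Ndufc1 were called whichever library was left out.

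The 7 core and 28 accessory subunits are given side by side, with medians of -0.04 and -0.72, and 1 of 7 against 19 of 28 fell. With the length trend removed, as described with transcript length, the medians were -0.05 and -0.585 and 0 core and 3 accessory members were called. With that trend taken over genes of at least 10 CPM they were 0.06 and -0.28. The core member that fell was Ndufs8, which carries iron-sulfur clusters of the Q module: 335, 394 and 315 CPM fed and 262, 230 and 172 CPM under ADF, a log2 fold change of -0.65 ± 0.19 (adjusted p = 0.0371). Ndufv2, an iron-sulfur subunit of the N module, was at -0.53 ± 0.17 (adjusted p = 0.0588). The 75 kDa iron-sulfur subunit Ndufs1 was at 0.40 ± 0.19 (adjusted p = 0.238), Ndufs3 at -0.04 ± 0.17, Ndufs7 at -0.29 ± 0.17 and Ndufv1, which binds NADH and the flavin, at -0.03 ± 0.17, none of them called. The split between core and accessory members was made from their known roles and the difference of the medians carries no test.

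**Figure D2:**
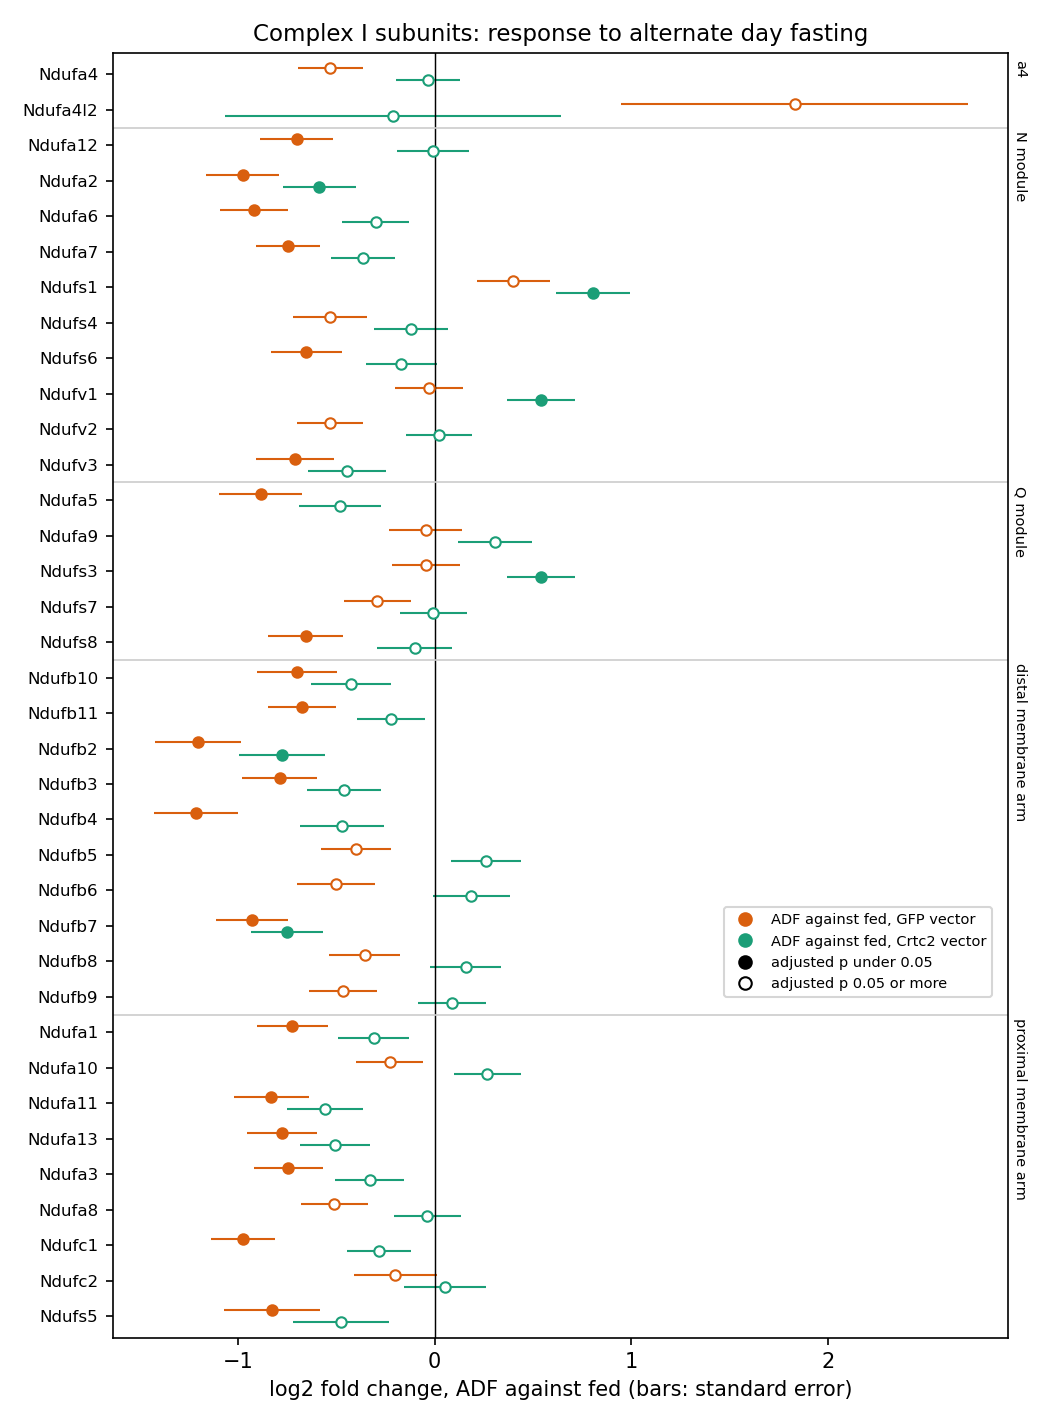
Log2 fold change of ADF against fed (horizontal axis; bars are standard errors) for 36 members with the GFP and the Crtc2 vector, grouped by module; filled points have an adjusted p under 0.05. In GFP muscle 20 members lie to the left as filled points, and in Crtc2 muscle 3 filled points lie to the right (Ndufs1, Ndufs3, Ndufv1) and 3 to the left (Ndufa2, Ndufb2, Ndufb7).

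In Crtc2 muscle 4 of the 37 members rose and 3 fell under ADF, where 6.3% of all genes rose and 4.68% fell (11% in either direction). These counts are near the background and are given as values of single genes, with nothing read from their number. Core subunits Ndufs1, Ndufs3 and Ndufv1 were among those that rose, and accessory subunits Ndufa2, Ndufb2 and Ndufb7 fell. The median over the 37 members was -0.17, against -0.13 for all genes tested, and -0.30 for the accessory members. It was -0.10 without ADF Crtc2 replicate 2, from 0.0037 to 0.0306 in 3 of the 4 length fits, and -0.0565 in the fourth. Scaling by library totals instead of TMM, which moved the median of all genes by -0.29, gave 0 members higher and 17 lower, with a median of -0.45 over the members and -0.58 over the accessory members, and no called member changed sign. Leaving out 1 library gave 2 to 8 calls: 2 without fed Crtc2 replicate 3 or ADF Crtc2 replicate 2 or 3, 3 without fed Crtc2 replicate 1, ADF Crtc2 replicate 1 or ADF GFP replicate 2, and 4 without fed GFP replicate 3. With the replicate number as a block, 2 rose and 2 fell.

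Ndufs1 (chromosome 1, 63143596 to 63176833) had 295, 424 and 265 CPM in fed Crtc2 muscle and 568, 564 and 587 CPM in ADF Crtc2 muscle. All ADF libraries were above all fed ones, and the fed values were spread more widely. It rose by 0.80 ± 0.19 (adjusted p = 0.00667) and was called in 23 of 24 settings, the exception being library totals. Ndufb7, a distal arm subunit (chromosome 8, 83566671 to 83571626), had 494, 444 and 414 CPM fed and 253, 250 and 299 CPM under ADF. The groups did not overlap, and it fell by 0.75 ± 0.18 (adjusted p = 0.00858). That call was lost in all 4 length fits.

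The other named calls in Crtc2 muscle were close to the threshold. Ndufs3, which helps build the Q module, had 182, 258 and 213 CPM fed and 305, 319 and 326 CPM under ADF (0.54 ± 0.17, adjusted p = 0.0467). Ndufv1 had 666, 511 and 521 CPM fed and 858, 770 and 842 CPM under ADF (0.54 ± 0.17, adjusted p = 0.0445). In both the groups did not overlap, yet Ndufs3 was called in 8 and Ndufv1 in 6 of 24 settings. Ndufa2 (-0.59 ± 0.19, adjusted p = 0.0449) was called in 12 and Ndufb2 (-0.77 ± 0.22, adjusted p = 0.0235) in 17 of them.

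Within each library, the core and accessory members could be set against each other without regard to scaling. The median deviation of log2 CPM from the mean of the 12 libraries was taken over the core members, and that over the accessory members was subtracted. The difference was -0.33, -0.24 and -0.27 in fed GFP muscle and -0.41, -0.12 and -0.48 in fed Crtc2 muscle. It was 0.37, 0.45 and 0.32 in ADF GFP muscle and 0.29, 0.26 and 0.18 in ADF Crtc2 muscle. The lowest of the 6 ADF libraries (0.18) thus lay above the highest of the 6 fed libraries (-0.12). The values are centred on the mean of the same libraries, so their signs carry no information beyond this separation. They were not corrected for transcript length, and the part of length in the separation was not tested.

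**Figure D3:**
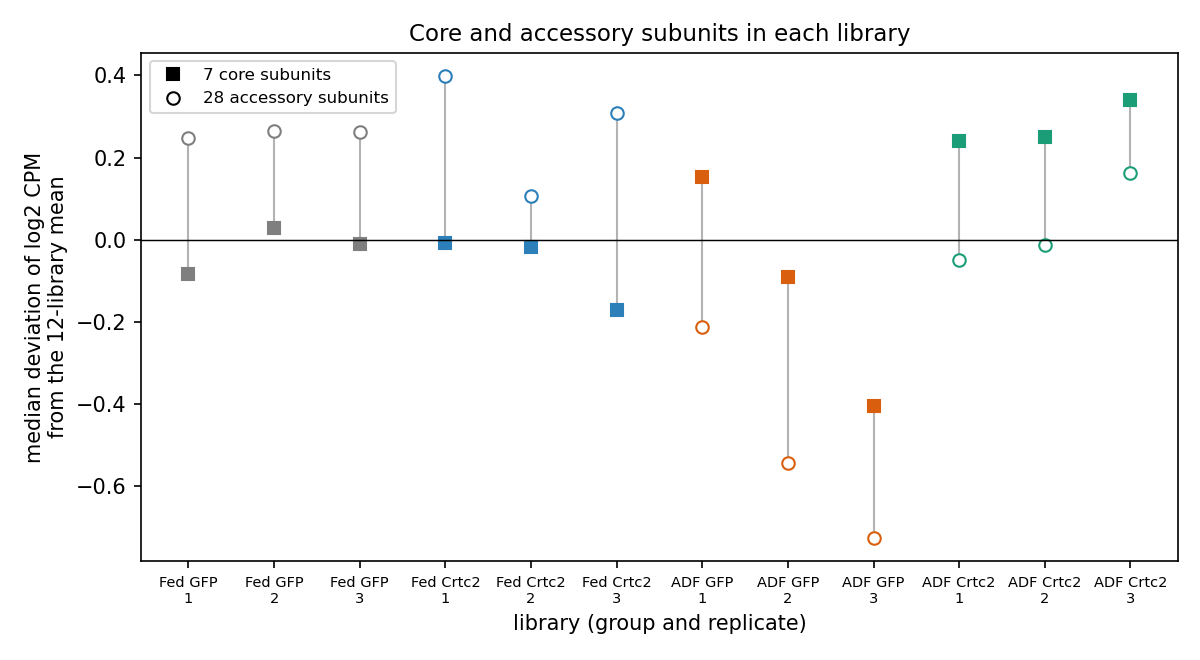
Median deviation of log2 CPM from the mean of the 12 libraries (vertical axis) for the 7 core subunits (squares) and 28 accessory subunits (open circles) in each library (horizontal axis). The circles lie above the squares in the 6 fed libraries and below them in the 6 ADF libraries.

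Transcript length moved with the same response, and most accessory members are short. Among genes averaging 10 CPM or more, and in GFP muscle, 26.3% of those under 700 bases fell under ADF, 15.5% of those from 700 up to 1000 bases, 5.88% of those from 1000 up to 2000 bases and 4.18% of longer ones. Of the members, 9 of 13, 5 of 9, 5 of 12 and 1 of 3 fell in these classes, the last being Ndufb2 with its long principal transcript. The median log2 fold change under 700 bases was -0.62 for all 274 such genes and -0.74 for the 13 members. From 1000 up to 2000 bases it was -0.13 for all genes and -0.53 for 12 members. Spearman's rho between length and fold change across 7788 genes was 0.28 with GFP and 0.11 with Crtc2, and 0.34 and 0.38 across the 37 members; genes are not independent replicates, and members share libraries.

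With the length trend removed in each library by an offset, the median over the members in GFP muscle was -0.56 and 3 members were called, Ndufb2, Ndufb4 and Ndufc1. Further versions were run after this result was seen, and union exon lengths had also been used in an early run. A trend fitted only over genes of at least 10 CPM gave a median of -0.24 and 5 calls, the shortest principal transcript gave -0.54 and 2 calls, and the union of exons gave -0.65 and 7 calls. In Crtc2 muscle Ndufs1 and Ndufs3 were called higher in all 4 versions, and 0 or 1 member was called lower. The protocols name 2 library kits without assigning them, and the part of the kit was not tested.

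**Figure D4:**
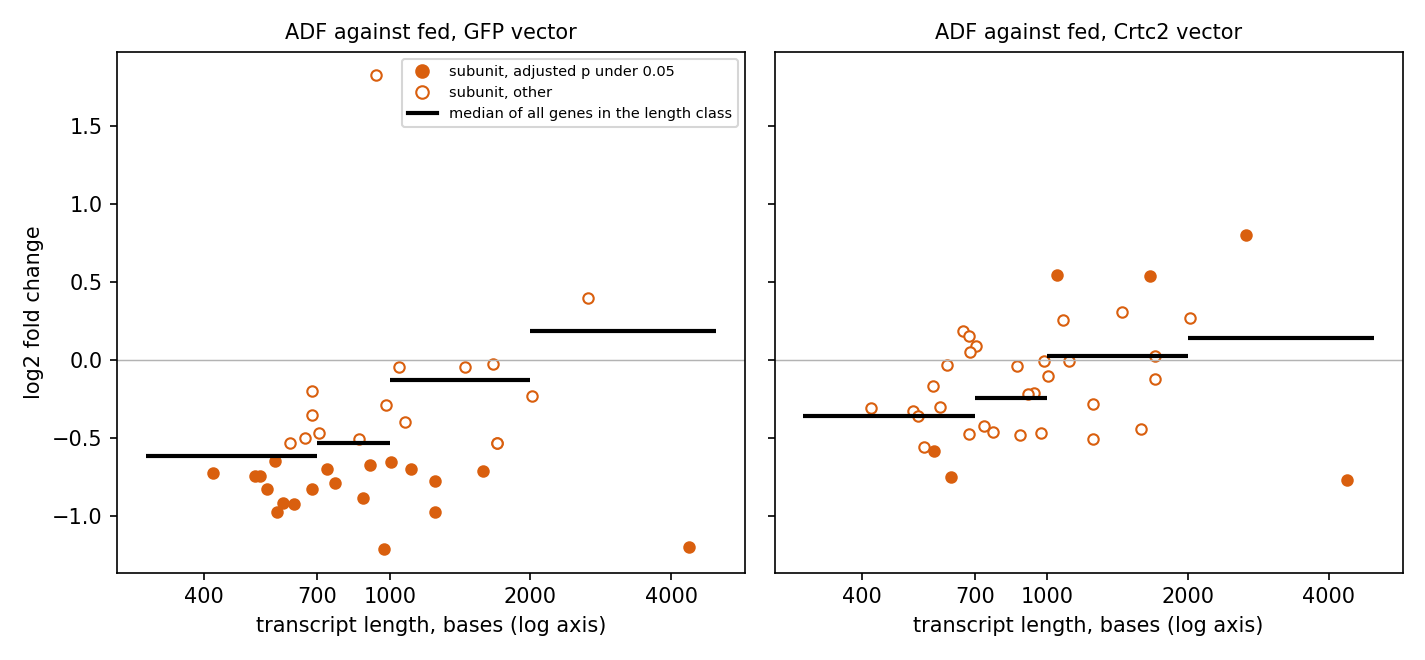
Log2 fold change of ADF against fed (vertical axis) by length of the longest principal transcript in bases (log axis) for 36 members with the GFP (left) and the Crtc2 vector (right); filled points have an adjusted p under 0.05 and black lines are medians of all genes of at least 10 CPM in 4 length classes. The medians rise from -0.62 in the shortest class to 0.19 in the longest in GFP muscle, and the longest member is Ndufb2 at 4371 bases.

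The comparison of Crtc2 with GFP asks what the coactivator changes under each diet. In fed muscle 0 of 37 members were called, as were 0% of all genes, and 0 members had an unadjusted p under 0.05 in edgeR, where 871 genes had one. DESeq2 called 0 members and 64 genes. Ndufb6 alone had groups that did not overlap, lower with Crtc2 (1 of 37), which 3.84% of all genes showed downward and 4.7% upward. The median over the members was 0.04, with fold changes from -0.33 (Ndufb6) to 0.80 (Ndufa4l2, ± 0.86). The 95% interval of the change was -0.34 to 0.40 for Ndufa1, and changes inside it could not be told from 0.

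Under ADF, 1 of 37 members, Ndufc1, was called higher with Crtc2 than with GFP and the other 36 did not pass, where 0.075% of all genes rose and 0.65% fell (0.725% in all). The median over the members was 0.47 against -0.01 for all genes, 36 of 37 were positive, and 27 had all Crtc2 libraries above all GFP libraries, which held for 9.6% of genes. Short genes were also higher with Crtc2. Among genes averaging 10 CPM or more, medians were 0.31 under 700 bases, 0.27 from 700 up to 1000, 0.19 from 1000 up to 2000 and 0.03 for longer ones. Members of these classes had medians of 0.45, 0.51, 0.41 and 0.46. The part of length was not tested. The median over the members was 0.28 with library totals (-0.22 for all genes) and 0.27 with the length trend taken over genes of at least 10 CPM (-0.05 for all genes). Ndufc1 had 176, 184 and 165 CPM with GFP and 260, 282 and 309 CPM with Crtc2. No library overlapped, and the log2 fold change was 0.70 ± 0.16 (adjusted p = 0.0492). It was called in 8 of 24 settings, with adjusted p from 0.000142 to 0.25, and no call held in all fits that left out 1 library. It was lost without fed GFP replicate 3, fed Crtc2 replicate 1 or 2, any ADF GFP replicate or any ADF Crtc2 replicate. No member was called with library totals, without the filter on low counts, with the replicate block or in any of the 4 length fits. DESeq2 called 11 members higher, and over all genes 126 higher and 426 lower.

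Among the members with a CRE in their promoter window, Ndufb2 had the largest fold change, 0.81 ± 0.22 (adjusted p = 0.0909), with 51.8, 53.2 and 33.8 CPM with GFP and 91.0, 75.6 and 77.1 CPM with Crtc2. The groups did not overlap. Ndufa10 was at 0.46 ± 0.17 and Ndufa11 at 0.38 ± 0.19, close to the median of all members, and none of the 3 was called. Ndufa4, which the file's description gives as a subunit of cytochrome c oxidase, was at 0.67 ± 0.16 (adjusted p = 0.0636), with 554, 562 and 410 CPM with GFP and 799, 724 and 904 CPM with Crtc2. Its relative Ndufa4l2, known as a target of hypoxia signalling, was the 1 member below 0, at -1.25 ± 0.87, with 5.10, 13.5 and 10.02 CPM with GFP and 4.02, 2.73 and 5.33 CPM with Crtc2.

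Markers of other cell types moved beside these comparisons. Summed over 10 macrophage markers, CPM was 522 to 835 in ADF GFP muscle and 182 to 282 in ADF Crtc2 muscle, against 397 to 469 in fed GFP and 222 to 339 in fed Crtc2 muscle. Summed over 6 fibroblast markers it was 1647 to 3473 and 794 to 1228, against 766 to 2044 and 581 to 1704. The 8 markers of muscle fibres, all present in every group, summed to 120800 to 179400 in ADF GFP and 155200 to 173500 in ADF Crtc2 muscle and overlapped. Within this sum single markers moved in opposite directions under ADF, with 4 positive and 4 negative log2 fold changes in GFP muscle. In fed and ADF GFP muscle respectively, Acta1 had 20130 to 25020 and 43050 to 61500 CPM, and Mylpf 23150 to 29280 and 13090 to 18050. In ADF GFP and ADF Crtc2 muscle respectively, 7 endothelial markers summed to 313 to 475 and 231 to 313 CPM, 5 adipocyte markers to 28.7 to 49.2 and 18.8 to 64.8, 5 red cell markers to 119 to 396 and 69.9 to 176, and 4 Schwann cell markers to 27.9 to 58.0 and 80.9 to 202. The 7 T cell markers summed to 20.6 to 56.9 and 1.90 to 3.56 CPM, with 1 at 0 in all ADF Crtc2 libraries, and the 4 B cell markers to 0.771 to 22.4 and 0 to 3.15, with 3 at 0 there. Between fed and ADF muscle, groups that did not overlap were, with GFP, the macrophage sums above and the adipocyte sums (8.15 to 19.3 CPM fed and 28.7 to 49.2 under ADF). With Crtc2 they were the sums for Schwann cells (17.3 to 55.0 and 80.9 to 202), T cells (6.22 to 65.2 and 1.90 to 3.56) and endothelium (365 to 517 and 231 to 313). The part of these cell types in the differences between members was not tested.

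The interaction, which subtracts the Crtc2 effect of the fed state from that of ADF, was positive in 36 of 37 members, with a median of 0.43 against -0.08 for all genes. Among genes averaging 10 CPM or more, the median was 0.27 both under 700 and from 700 up to 1000 bases. It was 0.15 from 1000 up to 2000 bases and -0.02 for longer genes. The median over the members was 0.26 with library totals (-0.275 for all genes) and 0.24 with the length trend over genes of at least 10 CPM (-0.115 for all genes), where 34 of 37 members were positive. Genes of other respiratory complexes, given below, were positive as well. None passed in edgeR (0 of 37, and 0% of all genes), 11 members and 1240 of all 16007 genes had an unadjusted p under 0.05, and DESeq2 called 0 members and 111 genes. The smallest adjusted p was 0.52. So the calls in GFP muscle and their smaller number in Crtc2 muscle do not show, gene by gene, that the response to ADF differed between vectors. The comparisons share their ADF or fed libraries, so their fold changes are not independent.

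Other respiratory chain genes were read beside the members. Over all genes tested, 3.06% fell and 4.06% rose under ADF in GFP muscle, and 4.68% fell and 6.3% rose in Crtc2 muscle. The calls below are without a length offset. Among genes averaging 10 CPM or more and under 700 bases, 26.3% fell in GFP muscle, and the part of length in these calls was not tested. In GFP muscle under ADF, 5 of 9 measured complex III genes fell (Uqcrq -0.92 ± 0.18 and Uqcr11 -0.92 ± 0.17 the lowest, both small subunits) and 0 rose. Of 11 complex IV genes 9 fell, among them Cox7a1, the muscle isoform of a small subunit, by 1.11 ± 0.19. Of 15 ATP synthase genes 6 fell and 1 rose: Atp5e, a small rotor subunit, fell by 0.92 ± 0.18, and Atp5a1, the alpha subunit, rose by 0.59 ± 0.17. Of 4 complex II genes Sdha, the flavoprotein, rose by 0.91 ± 0.18. In Crtc2 muscle, Atp5a1 (0.93 ± 0.17), Atp5b, Atp5c1 and Atp5f1 rose and Atp5e fell, Sdha (1.26 ± 0.18) and Sdhd rose, Uqcrc1 rose by 0.69 ± 0.18, and 0 of 11 complex IV genes passed. For Crtc2 against GFP under ADF, all 9 complex III, 11 complex IV, 15 ATP synthase and 4 complex II genes were positive, and 0 passed. Their medians were 0.46, 0.57, 0.51 and 0.41. The interaction was also positive in all of them, with medians of 0.42, 0.49, 0.39 and 0.38, and 0 passed. These shifts were thus not particular to complex I.

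Among 17 measured assembly factors of complex I, Acad9, which acts in building the membrane arm, rose by 0.98 ± 0.30 in Crtc2 muscle, and 0 passed in GFP muscle. Of 10 regulators of mitochondrial genes, Esrra, an estrogen-related receptor, rose by 0.79 ± 0.20 in Crtc2 muscle and 0 passed in GFP muscle. Over all genes tested 6.3% rose in Crtc2 muscle, and nothing is read from the number of these calls. Ppargc1a, the gene of PGC-1 alpha, passed in no comparison, with 17.7 to 44.4 CPM in fed GFP and 24.5 to 52.2 CPM in ADF GFP muscle. Ndufab1 had 59.6 ± 11.5 CPM in ADF GFP and 93.1 ± 20.4 CPM in fed GFP muscle (SD, n = 3 each) and was called in no comparison.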

How the data were processed

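The 12 libraries hold RNA from tibialis anterior. The authors deposited raw counts of reads for each gene; the submitters' processing notes name DESeq2 1.18.1, Subread 1.6.1 with featureCounts, SAMtools 1.7 and HISAT2 2.0.5, on GRCm38 (mm10); strand setting and annotation are not given in the sources used here. Between 68.9 and 74.7% of low counts in each library were even numbers, so counts halved were run as an alternative. From these counts, edgeR 4.0.16 (R 4.3.3) tested the changes: TMM scaling, filterByExpr, a robust quasi-likelihood fit over all 12 libraries with 4 group means, and Benjamini-Hochberg adjustment over 16007 genes with a threshold of 0.05. Intervals are 95% and the SE is the log2 fold change over the square root of F. DESeq2 1.42.0 was an alternative. With 3 against 3 libraries the smallest exact two-sided p is 0.1. In simulated data of ADF against fed in GFP muscle (15160 genes), 103 genes were changed 2-fold and 97 were changed 4-fold. Of these, 25.2% and 76.3% were recovered, and 8 unchanged genes were called. The data had 1140 calls in this comparison, far more than the genes changed in the simulation. The recovered shares therefore need not hold for the members.

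Lengths are those of the longest APPRIS principal transcript in GENCODE mouse release 21, found for 22582 genes. Alternatives were other scalings, filters, groups fitted, a replicate block, each library left out, and a length offset. An early run used union exon lengths, before principal transcripts were adopted. With principal transcripts, the length offset was first run with the trend over all genes tested and is kept in that form. The 3 further versions (genes of at least 10 CPM, shortest principal transcript, union of exons) were added after results had been seen, and all are reported. The members, motifs and lists were chosen with earlier results of these data known. Named are all called members, the 7 core subunits, Ndufa4, Ndufa4l2, the members with the highest and lowest level per length, up to 4 genes of each other list with more where they passed, and the members with a CRE. One member is counted but not reported singly here. Of the lists, Coa1 was not in the table. Markers of 9 cell types were summed; they carry no test here. No library duplicated another of its group.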

Additional observations from a re-analysis of the deposited data

How the results depend on the processing

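Over 28 called results of single members and 24 alternative settings, 476 of 672 values stayed past the threshold, 196 were lost and 0 changed sign; 3 of the settings were chosen after seeing the data. The count of members called for Crtc2 against GFP under ADF was 1, and 11 with DESeq2, 3 with a mean of at least 10 CPM, 2 with only the 2 groups compared, 0 with library totals, without a filter on low counts and in all 4 length offsets, and 0 to 1 with a library left out. For ADF against fed in GFP muscle it was 20, and 3 with the planned length offset, 5, 2 and 7 with the trend over genes of at least 10 CPM, the shortest principal transcript and the union of exons, and 7 to 21 with a library left out. For ADF against fed in Crtc2 muscle it was 7, and 17 with library totals, 3 without a filter, 3, 4, 3 and 3 with the length offsets in the same order, and 2 to 8 with a library left out. For the other comparisons it was 0 in all settings run. The cause of these differences was not tested.

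The median over the members changed sign in fed muscle, Crtc2 against GFP, with the length offset (-0.0346), the shortest principal transcript (-0.0375) and the union of exons (-0.0522), and without fed GFP replicate 1 (-0.0073) or fed Crtc2 replicate 1 (-0.0324), and lay between -0.0324 and 0.116 over the fits with a library left out. It changed sign in Crtc2 muscle, ADF against fed, with the length offset (0.0306), the trend over genes of at least 10 CPM (0.0037) and the shortest principal transcript (0.0236).

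Whether the replicate numbers pair the libraries is not settled. The 18 same-numbered pairs had a median correlation of deviations of 0.0091 and a highest one of 0.134, with 1 over 0.1. The 36 pairs of other numbers had a median of -0.0045 and a highest one of 0.0525. Of the 12 libraries, 8 correlated best with one of their own number. With the number as a replicate block, 0 members were called in fed muscle and 0 under ADF for Crtc2 against GFP, 20 for ADF against fed in GFP muscle, 4 in Crtc2 muscle and 0 for the interaction. Depth was lowest for Ndufa4l2, with as few as 24 counts in a library. Across genes, chi-square per gene against counting error was 50.1 to 160 in the 12 pairs of libraries within groups. Libraries of a group thus differed by more than counting error, which was not compared for single members.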
